A study of Mus musculus with 6 samples.

Results

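The genes described here are 10 genes of resident macrophages: Cd163, Folr2, Mrc1, Cd209f, Cd209g, F13a1, Cbr2, Gas6, Timd4 and Clec10a. They were taken by symbol from the 31053 gene IDs listed for each library, and all 10 were found. Their UMIs (unique molecular identifiers, 1 per captured transcript) were read in macrophages, with monocytes and Cd209a dendritic cells beside them. A macrophage was a droplet with at least 500 detected genes, at most 10% mitochondrial UMIs, at least 3 UMIs of the complement genes C1qa, C1qb and C1qc together, and none of the lymphocyte genes Cd3e and Cd79a. By this rule 5438 of 24488 cells (22.2%) were macrophages, against 142 monocytes and 338 Cd209a dendritic cells. None of the 10 genes was used to place a cell. Cells of every other class had under 3 C1q UMIs, and a cell that passed the macrophage gate and another one was counted as a macrophage. Differences between macrophages and other classes are thus in part set by the gate for genes that follow C1q.

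The cells came from skin collecting lymphatic vessels, the valved vessels that pump lymph, of C57BL/6 mice. The vessel that joins the inguinal to the axillary lymph node was dissected after Evans Blue injection and digested with collagenase I, elastase, dispase and DNase I. There were 6 libraries made with a 10x 3′ kit: 2 from young mice (6 weeks), 2 from middle-aged mice (12 months) and 2 from aged mice (18 months), 1 labelled male and 1 labelled female at each age. The mice carried no named transgene or mutation, and the aged mice came from the National Institute on Aging, so supplier and age cannot be told apart. The number of mice behind a library is not given, so p-values measure only the spread between these 6 libraries.

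Resident macrophages of connective tissue lie along vessels and take up cell debris, plasma proteins and glycoproteins through surface receptors. Cd163 binds hemoglobin bound to haptoglobin, Mrc1 is the mannose receptor, Folr2 is folate receptor beta, and Clec10a, Cd209f and Cd209g are C-type lectins that bind sugars. Timd4 and Gas6 act in the clearance of dying cells: Timd4 is a receptor for exposed phosphatidylserine, and Gas6 is a secreted ligand that bridges phosphatidylserine to the receptor kinases Tyro3, Axl and Mertk. F13a1 is the A subunit of coagulation factor XIII, a transglutaminase that cross-links fibrin, and Cbr2 is a carbonyl reductase.

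The 6 libraries held 9616652 to 28921825 UMIs and 999 to 8228 cells, and macrophages numbered 1739 and 940 in the young male and female libraries, 1710 and 91 in the libraries labelled middle-aged male and female, and 597 and 361 in the aged male and female libraries. Median depth per macrophage ran from 1982 UMIs in the young male library to 7333 in the library labelled middle-aged female. CPM below is UMIs of a gene per 1000000 UMIs of the class. Xist stood at 1143 CPM in macrophages of the library labelled middle-aged male, with 4 Y-linked genes at 0. In the one labelled middle-aged female Xist was at 0 and the Y-linked genes at 232 CPM. This pair goes against its labels, and no comparison of the sexes is drawn from it. Summed CPM of 5 fibroblast markers in macrophages was 8267 in the young male library and 72.5 to 1113 in the others. Of all macrophages, 849 also passed the gate of another cell class: 532 that of Cd209a dendritic cells, 171 that of fibroblasts and 100 that of monocytes. In the library labelled middle-aged female this was 52 of 91 macrophages (57.1%). Over 15 pairs of libraries, 63 cell barcodes were shared where 33.8 are expected for random barcodes, and 3 of them were macrophages in both. Scrublet marked 590 cells as doublets (2.41%), and these were removed only as an alternative.

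The marker lists overlap with the gates: C1qa, C1qb and C1qc are among the macrophage markers, Ly6c2, Plac8, Ccr2 and Chil3 among those of monocytes and Cd209a among those of dendritic cells, so their sums are in part set by the gates. All 9 macrophage markers were detected in macrophages of every library, and their summed level was 9896 to 15231 CPM in macrophages, 993 to 2074 CPM in monocytes and 309 to 482 CPM in Cd209a dendritic cells. Monocyte markers (8 genes) summed to 133 to 657 CPM in macrophages and 3453 to 9714 CPM in monocytes, and Cd209a dendritic cell markers (7 genes) to 130.3 to 472 CPM in macrophages and 1323 to 1778 CPM in those dendritic cells. At the edge of the gate, in the young male library, 45 macrophages with exactly 3 C1q UMIs had 202 CPM of Folr2 and 372 CPM of Mrc1, and 102 cells just outside it, with 2 C1q UMIs, had 39.1 CPM of Folr2 and 156 CPM of Mrc1.

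Cd209f and Cd209g are neighbouring lectin genes on chromosome 8. Their RefSeq promoters on GRCm38.p6 (250 bases before to 50 after the start of the gene) are shown because a single run of 180 bases, printed in capitals, is identical in both. The Cd209f promoter is chr8:4105715-4106014 on the minus strand and the Cd209g promoter is chr8:4134486-4134785 on the plus strand. The RefSeq starts of both genes differ from those of GENCODE. The Cd209g promoter shown lies within the GENCODE span of its gene, and the Cd209f promoter lies in part within that of its own. The run covers positions -154 to 25 of Cd209f and -168 to 11 of Cd209g, with the first base of the gene as 0.
Cd209f: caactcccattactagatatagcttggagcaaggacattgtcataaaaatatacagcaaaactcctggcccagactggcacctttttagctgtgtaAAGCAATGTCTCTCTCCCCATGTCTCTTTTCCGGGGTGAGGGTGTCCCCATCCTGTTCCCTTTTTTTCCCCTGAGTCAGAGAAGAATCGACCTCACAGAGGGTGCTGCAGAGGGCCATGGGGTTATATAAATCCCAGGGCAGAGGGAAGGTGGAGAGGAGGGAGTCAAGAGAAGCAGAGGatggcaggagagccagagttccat
Cd209g: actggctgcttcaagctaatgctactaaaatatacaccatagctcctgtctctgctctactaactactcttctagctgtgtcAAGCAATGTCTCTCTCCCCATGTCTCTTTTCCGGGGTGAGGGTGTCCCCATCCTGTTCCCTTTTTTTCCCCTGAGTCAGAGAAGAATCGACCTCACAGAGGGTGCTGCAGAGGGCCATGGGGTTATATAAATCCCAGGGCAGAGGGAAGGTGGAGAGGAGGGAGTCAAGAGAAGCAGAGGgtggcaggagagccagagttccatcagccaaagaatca

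Mrc1 and F13a1, the pair with the highest co-detection in single macrophages, are shown for the motif GAGGAAG, the type bound by the myeloid factor PU.1, searched on both strands and printed in capitals. It occurred 2 times in each of these promoters, at -168 and -36 of Mrc1 and at -66 and 17 of F13a1. It was also in the Cbr2 promoter and in 13.6% of all 32851 promoters of this length, so its presence is a description only. The Mrc1 promoter is chr2:14229164-14229463 on the plus strand, and the F13a1 promoter shown, the first of 2, is chr13:37050195-37050494 on the minus strand.
Mrc1: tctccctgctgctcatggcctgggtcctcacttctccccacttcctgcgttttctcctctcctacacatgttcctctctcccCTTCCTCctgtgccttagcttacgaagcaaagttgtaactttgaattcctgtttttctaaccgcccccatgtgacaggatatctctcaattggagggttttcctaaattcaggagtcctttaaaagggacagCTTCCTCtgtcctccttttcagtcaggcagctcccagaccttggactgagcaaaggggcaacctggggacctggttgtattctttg
F13a1: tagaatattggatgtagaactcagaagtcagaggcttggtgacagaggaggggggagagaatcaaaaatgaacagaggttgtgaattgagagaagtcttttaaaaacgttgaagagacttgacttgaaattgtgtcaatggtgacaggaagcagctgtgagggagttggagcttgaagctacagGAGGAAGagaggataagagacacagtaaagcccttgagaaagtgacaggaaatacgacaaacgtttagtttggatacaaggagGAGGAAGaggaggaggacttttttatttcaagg

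Of the 10 genes, 9 had RefSeq promoters, and Clec10a had none in the table. A MAF-type motif, TGCTGAC, was found on either strand of the Cbr2 and Timd4 promoters and in 4.67% of all promoters. The C/EBP-type motif TTGCNNAA was in none of the members' promoters and in 10.8% of all promoters.

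All 10 are protein-coding genes with separate loci in GENCODE M21 (GRCm38). Reads were 98 bases long, and near the transcript ends 328 of 1149 windows of 98 bases of Cd209f also occur in Cd209g, 73 of 1149 of Cbr2 occur in Gm11771 and 95 of 2057 of Clec10a occur in Mgl2. The counts of these 3 genes may therefore miss reads or share them, and since Cd209g holds the shared Cd209f windows, so may its counts. For the other members no window of their own transcript ends was found in another gene. Cd209f spans chr8:4102787-4105835 and Cd209g chr8:4134098-4137707. Cd163 spans chr6:124304656-124330527, Folr2 chr7:101839988-101857194, Mrc1 chr2:14229392-14332057, F13a1 chr13:36867178-37050244, Cbr2 chr11:120729489-120732114, Gas6 chr8:13465374-13494490, Timd4 chr11:46810800-46844332 and Clec10a chr11:70156197-70170834. The microRNA gene Mir511 lies within Mrc1 on the same strand, and Folr2, F13a1 and Gas6 overlap genes of the other strand.

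The first question was which cells of the vessel carry these transcripts. Macrophages had the highest mean level of each of the 10 genes among the 11 cell classes with at least 2 libraries of 20 cells or more, and the lowest macrophage library lay above the highest library of the next class for all 10. By mean level Mrc1, Clec10a, Cd163 and Timd4 were next highest in Cd209a dendritic cells, and F13a1, Folr2 and Cd209f in monocytes. Cd209g was next highest in mast cells, and Gas6 and Cbr2 in epithelium. Only for Cd163 and F13a1 did the libraries of this class not overlap those of the class after it. The place of Cd209g rests on 1 mast cell UMI, that of Cd209f on 1 monocyte UMI and that of Folr2 on 7 monocyte UMIs. Levels are given as CPM of the summed UMIs of a class, with the mean ± SD over libraries.

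Among the scavenger receptors, Cd163 averaged 1005 ± 410.4 CPM in macrophages (SD, n = 6 libraries) and 182 ± 142 CPM in Cd209a dendritic cells (n = 5). Its macrophage level was 545 and 1025 CPM in the young male and female libraries, 891 and 1596 CPM in the libraries labelled middle-aged male and female, and 1353 and 621 CPM in the aged male and female libraries. Its dendritic cell level was 96.4, 117.5, 96.3, 169 and 431 CPM in the young male library, the young female one, the one labelled middle-aged male, and the aged male and aged female ones. The young male library was the lowest for macrophages, and the aged female library the highest for dendritic cells. In monocytes 2 UMIs of Cd163 were counted in all 6 libraries together. Folr2 averaged 1372 ± 307 CPM in macrophages and 20.8 ± 29.4 CPM in monocytes (n = 2), with 5 UMIs over the 5 libraries of Cd209a dendritic cells. Mrc1 averaged 1989.7 ± 428 CPM in macrophages, 433 ± 153 CPM in Cd209a dendritic cells and 244 ± 33.8 CPM in monocytes, and the monocyte and dendritic cell libraries overlapped.

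Among the lectins, Cd209f averaged 1058 ± 243 CPM and Cd209g 413 ± 139 CPM in macrophages (SD, n = 6). Over the 5 libraries of Cd209a dendritic cells 2 UMIs of Cd209f and 3 of Cd209g were counted, and over all 6 monocyte libraries 2 UMIs of Cd209f and 0 of Cd209g. A count of 0 among 354634 monocyte UMIs allows up to 8.46 CPM, which covers counting error only. Clec10a was the least restricted lectin, with 994 ± 185 CPM in macrophages, 407 ± 109.9 CPM in Cd209a dendritic cells (n = 5), 211 ± 141 CPM in mast cells (n = 3) and 115 ± 44.4 CPM in monocytes (n = 2). The dendritic cell and mast cell libraries overlapped, and so did those of mast cells and monocytes.

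Of the genes for clearing dying cells, Timd4 averaged 121 ± 30.9 CPM in macrophages (SD, n = 6) and 21.1 ± 15.9 CPM in Cd209a dendritic cells (n = 5), and no UMI of it was counted in monocytes or T cells. Gas6 was the member that other tissue cells carried most: it averaged 590.3 ± 67.3 CPM in macrophages, 216 ± 102 CPM in epithelium (n = 3), 195 ± 92.6 CPM in fibroblasts (n = 6) and 137 ± 50.2 CPM in endothelium (n = 6). The 3 last classes overlapped one another. In Cd209a dendritic cells 4 UMIs of Gas6 were counted over 5 libraries.

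Of the enzymes, F13a1 averaged 2013 ± 289.7 CPM in macrophages (SD, n = 6), 601 ± 286 CPM in monocytes (n = 2) and 103 ± 64.3 CPM in Cd209a dendritic cells (n = 5). Its monocyte level was 398 and 651 CPM in the young male and female libraries, 803 and 261 CPM in the libraries labelled middle-aged male and female, and 529.7 and 791 CPM in the aged male and female libraries, some of them with few cells (5 to 88). Every monocyte library thus held F13a1, with a UMI in 44.3% to 83.3% of monocytes. Cbr2 averaged 695 ± 136 CPM in macrophages, and 29.7 ± 13.4 CPM in epithelium (n = 3) and 26.7 ± 37.8 CPM in monocytes (n = 2), which overlapped. In monocytes all 11 UMIs of Cbr2 came from the 2 young libraries.

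Free RNA was present. Droplets under 100 UMIs, which hold mostly RNA from the suspension, had 10.3 to 468 CPM of the 9 members other than Gas6, but T cells, which should lack them, had 0 to 23.7 CPM and a UMI in at most 3.05% of cells, with a median of 1303 to 5756 UMIs per T cell. Fibroblasts had 0 to 7.73 CPM of the same 9 genes. The levels of Mrc1, Clec10a and Cd163 in Cd209a dendritic cells and of F13a1 in monocytes lay above those of T cells in every library tested.

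**Figure D1:**
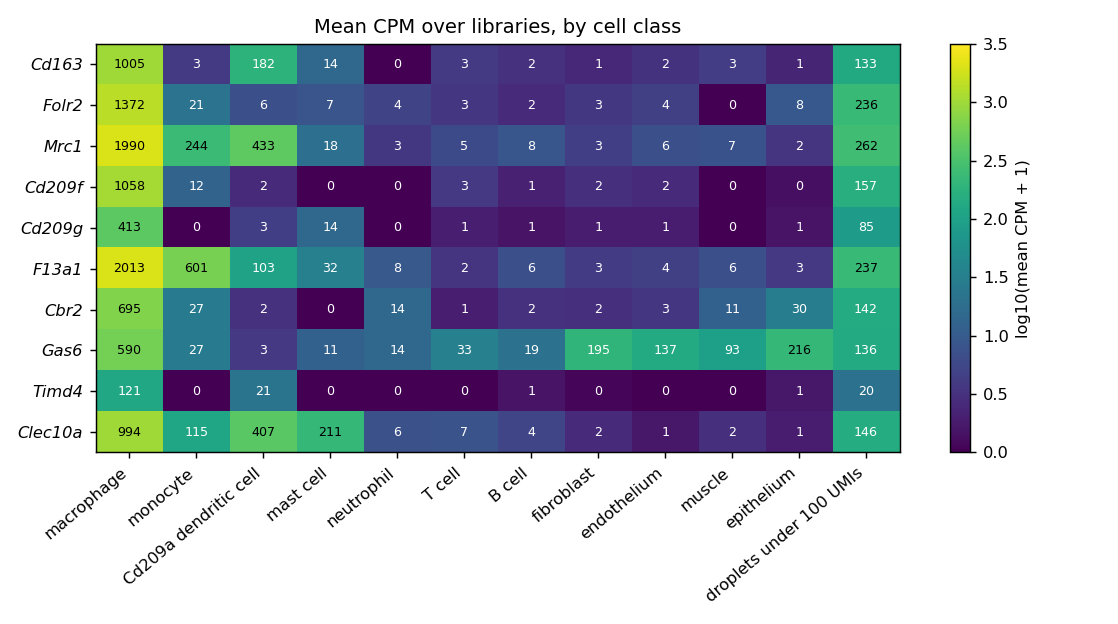
Mean CPM over libraries of each member (rows) in each cell class with at least 2 libraries of 20 cells, and in droplets under 100 UMIs (last column). Colour is log10(mean CPM + 1) and the printed number is the mean CPM, so the macrophage column can be read against all others, with Gas6 also in fibroblasts, endothelium and epithelium and F13a1 in monocytes.

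Macrophages were then compared with Cd209a dendritic cells within the 5 libraries that held at least 20 of both, as summed counts with library as a block (edgeR's quasi-likelihood test with Benjamini-Hochberg adjustment over all genes). All 10 genes were higher in macrophages, where 17.0% of the 7959 genes tested were called higher and 30.6% in either direction (1350 higher and 1087 lower, or 1790 and 833 with library totals only). The difference was largest for Cd209f, with a log2 fold of 8.96 ± 0.38 (SE, edgeR adjusted p = 1.4e-15), Folr2 (8.05 ± 0.38, adjusted p = 8.1e-15), Cbr2 (7.82 ± 0.37, adjusted p = 1.2e-14), Gas6 (7.13 ± 0.38, adjusted p = 8.3e-14) and Cd209g (6.98 ± 0.41, adjusted p = 7.4e-13). For Cd209f these folds rest on 2 dendritic cell UMIs, and for Cd209g and Cbr2 on 3 each. The ratio of summed counts was 566 for Cd209f (95% exact interval 157 to 4674), 142 for Cd209g (48.6 to 689) and 254 for Cbr2 (86.8 to 1229.9).

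F13a1 followed with a log2 fold of 4.25 ± 0.28 (SE, edgeR adjusted p = 8.8e-12). Timd4 (2.57 ± 0.33), Cd163 (2.31 ± 0.27) and Mrc1 (2.04 ± 0.20) differed less, and Clec10a least, at 1.14 ± 0.21 with an edgeR adjusted p of 0.00012. Each of the 10 was higher in macrophages in 5 of 5 libraries. The median log2 difference of the members was 5.62, beside 0.12 over all genes tested. Fibroblast markers moved the same way, with 2 of 5 higher in macrophages (Col1a2 by 1.19 ± 0.34 and Col1a1 by 0.89 ± 0.32, log2, edgeR adjusted p = 0.0093 and 0.035). So did both muscle markers tested of 4 (Tagln by 2.65 ± 0.62 and Acta2 by 1.77 ± 0.56, edgeR adjusted p = 0.0016 and 0.018) and the single neutrophil marker tested of 5 (Csf3r, by 4.59 ± 0.78, edgeR adjusted p = 4.9e-05). The part of these markers in the result was not tested. Without the 849 macrophages that passed another gate all 10 stayed higher.

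Monocytes reached 20 cells in only 2 libraries, the young male one and the one labelled middle-aged male, so the comparison with them rests on 4 sums and 1 residual degree of freedom, with the spread moderated over all genes. All 10 members were higher in macrophages, where 2.81% of the 9069 genes tested were called higher and 4.00% in either direction (255 higher and 108 lower, or 354 and 248 with library totals only). The log2 fold was 7.66 ± 0.90 (SE) for Cd209f, 7.18 ± 0.89 for Cd163, 5.66 ± 0.70 for Folr2, 4.56 ± 0.65 for Cbr2, 4.22 ± 0.64 for Gas6, 3.32 ± 0.57 for Clec10a and 3.08 ± 0.56 for Mrc1, with edgeR adjusted p between 3.1e-14 and 4.4e-06. F13a1 differed least, with a log2 fold of 2.05 ± 0.53 (SE, edgeR adjusted p = 0.0051). Cd163 and Cd209f each had 1 monocyte UMI in the libraries tested, and the ratio of summed counts was 149.5 for Cd163 (95% exact interval 26.8 to 5906) and 197 for Cd209f (35.4 to 7795).

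Cd209g and Timd4 had no monocyte UMI in the 2 libraries tested, so their folds are lower bounds against a floor of 3 counts over both libraries: Cd209g was at least 22.4-fold higher and Timd4 at least 8.49-fold higher in macrophages. With both at their bound the median log2 difference of the members was 4.35, beside 0.30 over all genes tested. DESeq2 called 8 of the 10, leaving out Cd209g and Timd4. With 6 libraries of at least 5 monocytes each, a choice made after seeing the data, all 10 stayed higher, and genes called over the whole table numbered 603 higher and 270 lower in place of 255 and 108. Fibroblast markers were again higher in macrophages for 3 of 5 (Dcn, Col3a1 and Col1a2), and their part in the result was not tested.

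**Figure D2:**
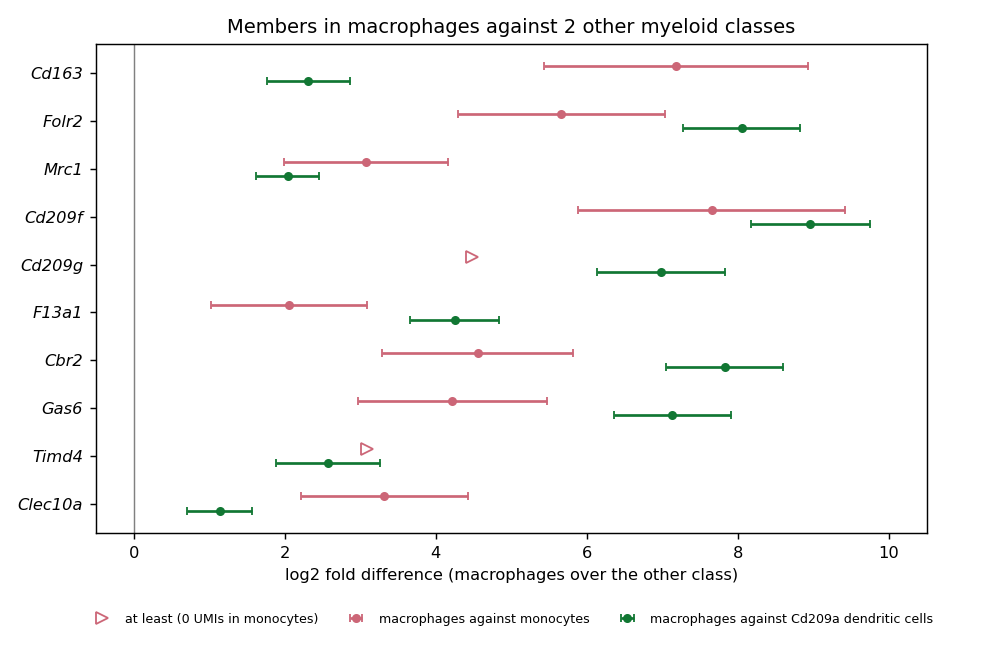
Log2 fold difference of each member in macrophages over monocytes (red, 2 libraries) and over Cd209a dendritic cells (green, 5 libraries), with 95% intervals from edgeR. Open arrows are lower bounds for Cd209g and Timd4, which had 0 UMIs in monocytes, and the values of Folr2, Cd209f, Cbr2, Gas6 and F13a1 are larger against dendritic cells, while those of Cd163, Mrc1 and Clec10a are larger against monocytes.

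Whether a gene differs more from one of these classes than from the other was not tested, and both contrasts use the same macrophage sums.

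Other genes of the same pathways, from lists that exclude the members, were read in the same comparisons. Of a 20-gene list of the Lyve1 resident macrophage programme, 19 were higher and 1 lower against Cd209a dendritic cells (median log2 5.42, beside 0.12 over all genes), and 17 were higher and 0 lower against monocytes (median 4.09, beside 0.30). Ccl8, a monocyte-attracting chemokine, was higher by 8.03 ± 0.31 against dendritic cells and 7.40 ± 0.82 against monocytes (log2 ± SE, edgeR adjusted p = 4.6e-16 and 7.4e-16). The chemokine Pf4 was higher by 8.72 ± 0.36 and Ccl24 by 9.53 ± 0.43 against dendritic cells. Lyve1, a hyaluronan receptor, was higher by 7.16 ± 0.38 against dendritic cells and 6.67 ± 0.81 against monocytes.

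Of 18 scavenger receptor genes, 7 of 11 tested were higher and 0 lower against dendritic cells, and 4 of 12 were higher and 0 lower against monocytes. They included Cd36, a receptor for oxidised lipids (log2 4.38 ± 0.27 against dendritic cells, 2.49 ± 0.55 against monocytes), and Stab1 (5.29 ± 0.38 against dendritic cells). Of 20 C-type lectins, 8 of 13 tested were higher and 3 lower against dendritic cells. Cd209b was higher by 4.82 ± 0.35, while Cd209a was lower (-3.21 ± 0.25), a gene the dendritic cell gate used. Against monocytes 4 of 15 lectins were higher and 2 lower, with Mgl2, the closest relative of Clec10a, higher by 3.78 ± 0.61 and Clec4e lower (-2.90 ± 0.42). Mgl2 may share reads with Clec10a.

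Of 20 genes of TAM receptors and clearance of dying cells, the partners of Gas6 and Timd4, 7 of 13 tested were higher and 1 lower against dendritic cells, and 3 of 15 were higher and 0 lower against monocytes. Pros1, the other ligand of the TAM receptors, was higher by 2.35 ± 0.24 against dendritic cells and 2.61 ± 0.60 against monocytes. Mertk, a receptor for both ligands, was at 82.1 to 124 normalised CPM in the macrophages of the 6 libraries and was called higher in both comparisons. Of 18 heme and iron genes, which act after the uptake of hemoglobin by Cd163, 9 of 15 were higher and 2 lower against dendritic cells, among them Hmox1, heme oxygenase (3.34 ± 0.33), and Blvrb, a biliverdin reductase (3.80 ± 0.26). Against monocytes 5 of 17 were higher and 1 lower, with Hmox1 higher by 2.59 ± 0.55 and Hp, haptoglobin, lower (-4.19 ± 0.51).

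Of 12 genes of folate uptake and use 2 of 5 tested, Mthfd2 and Tyms, were lower against dendritic cells, and 0 of 6 passed in either direction against monocytes by edgeR. Of 16 coagulation and fibrinolysis genes 4 of 10 were higher and 3 lower against dendritic cells, with Thbd, thrombomodulin, higher by 3.46 ± 0.36 and Plaur, the urokinase receptor, lower (-2.58 ± 0.22). Against monocytes 2 of 14 were higher and 3 lower, with F10, coagulation factor X, lower (-4.28 ± 0.70). All 8 MHC class II genes were lower against dendritic cells (median log2 -2.08), some of which the dendritic cell gate used, and 12 of 14 recruited monocyte genes were lower against monocytes, several of which their gate used. Of 12 glucocorticoid-induced genes 5 of 12 were higher and 0 lower against dendritic cells, with Cebpd higher by 1.55 ± 0.23, and 2 of 12 higher and 0 lower against monocytes.

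Of 17 alternative activation genes 3 of 12 were higher and 3 lower against dendritic cells, with Il10 higher by 4.69 ± 0.32 and Retnla by 3.08 ± 0.31, and 3 of 13 were higher and 1 lower against monocytes, with Retnla higher by 8.62 ± 1.03 and Chil3, a gene of the monocyte gate, lower. Of 13 lipid-associated macrophage genes 5 of 10 were higher and 2 lower against dendritic cells, with Apoe higher by 7.03 ± 0.30. Against monocytes 2 of 13 were higher and 1 lower. Of 16 inflammatory cytokines 5 of 13 were higher and 3 lower against dendritic cells, and 3 of 13 were higher and 1 lower against monocytes, with Il1b lower in both (-4.66 ± 0.33 and -2.69 ± 0.45). Of 16 immediate early and heat shock genes, which also move with tissue digestion, 10 were higher and 0 lower against dendritic cells, and 4 were higher and 0 lower against monocytes.

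The second question was whether single macrophages carry these transcripts together. Each macrophage was thinned to 1500 UMIs, which left 4248 macrophages and dropped 1190 shallower ones, and the log2 odds ratio of 2 genes being seen in the same cell was taken in each library. The ratio is given with no p, since cells of 1 library are not replicates. All 45 pairs had a median log2 odds ratio over 6 libraries above 0, with a median over pairs of 1.66 (1.07 with cells thinned to 1000 UMIs, 2.83 with cells thinned to 2500 UMIs and 2.53 without thinning). In 5 libraries each of the 45 pairs was above 0, and in the library labelled middle-aged female, with 90 cells, 36 were. Odds ratios of gene pairs taken at random or matched in level were not computed, so these counts have no background share beside them. Whether the members go together more than other macrophage genes do was therefore not tested.

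Mrc1 and F13a1 had the highest median log2 odds ratio, 2.90, with 2.89 and 2.67 in the young male and female libraries, 3.13 and 2.91 in the libraries labelled middle-aged male and female, and 1.53 and 4.28 in the aged male and female libraries. Folr2 with F13a1 (median 2.83), Folr2 with Cd209f (2.58) and Mrc1 with Clec10a (2.57) followed. Cd209f and Cd209g, which may share reads, had a median of 2.20 and a range of 1.38 to 3.70. The lowest medians belonged to Cd163 with Cd209g (0.52), Cd163 with Gas6 (0.63) and Gas6 with Timd4 (0.64), and each of these was below 0 in the library labelled middle-aged female.

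By member, F13a1 had the highest median over its 9 partners (log2 odds ratio 2.22), then Folr2 (2.15), and Timd4 the lowest (0.97). Folr2 and Mrc1 were above 0 with all 9 partners in every library. Between libraries the median over pairs was 2.28 and 1.57 in the young male and female libraries, 1.37 and 0.75 in the libraries labelled middle-aged male and female, and 1.13 and 3.08 in the aged male and female libraries. The aged pair thus spanned the values of the young pair. With macrophages that passed another gate removed, the median over pairs was 1.88 and all 45 pair medians stayed above 0.

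**Figure D3:**
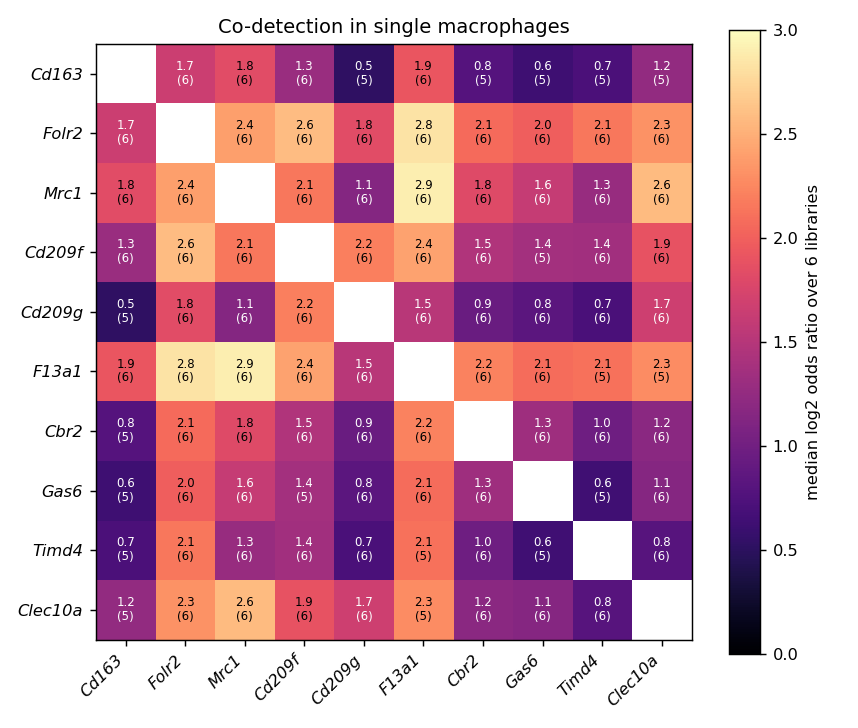
Median log2 odds ratio over 6 libraries for each pair of members seen in the same macrophage, with cells thinned to 1500 UMIs. The number in brackets is how many of the 6 libraries lay above 0, and the highest pair is Mrc1 with F13a1 (2.90), followed by Folr2 with F13a1 (2.83).

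In the thinned cells a UMI of Mrc1 was seen in 81.3% to 94.4% of macrophages of a library, F13a1 in 82.0% to 93.5%, Folr2 in 69.6% to 84.8%, Clec10a in 57.2% to 76.7%, Cd209f in 48.7% to 72.6%, Cbr2 in 52.2% to 63.9%, Gas6 in 50.5% to 61.2%, Cd163 in 38.2% to 77.8%, Cd209g in 32.5% to 50.7% and Timd4 in 7.78% to 21.6%. The median cell held 6 or 7 of the 10 genes. At least 8 genes were seen in 26.1% and 40.6% of macrophages in the young male and female libraries, 28.7% and 22.2% in the libraries labelled middle-aged male and female, and 31.9% and 41.3% in the aged male and female libraries. In the aged female library 8.56% of macrophages held none of the 10, against 0.363% to 4.95% in the others.

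Timd4 was seen in the smallest share of macrophages among the members, and its mean level in macrophages, 121 CPM, was also the lowest among them. At 1500 UMIs per cell, a macrophage with no Timd4 UMI may still carry the transcript. Whether cells with a Timd4 UMI form a separate set was not tested. In the aged female library 56 macrophages held a Timd4 UMI and 271 did not: Folr2 was seen in 96.4% of the Timd4-positive cells and 66.1% of the Timd4-negative ones, Lyve1 in 87.5% and 60.5%, and Ccr2, the receptor for monocyte recruitment, in 5.36% and 21.8%. In the young male library the shares in 125 positive and 1086 negative cells were 89.6% and 67.3% for Folr2, 79.2% and 49.4% for Lyve1, and 3.2% and 19.9% for Ccr2. The direction of these shares was the same in all 6 libraries for the 3 genes, though the one labelled middle-aged female had only 7 Timd4-positive cells. The log2 odds ratio of Timd4 with Ccr2, which adds a small value to each count, was above 0 in 1 of 6 libraries (0.24).

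Outside the 10 genes, co-detection was read with 14 further macrophage and monocyte genes. All 10 members had a log2 odds ratio above 0 with Lyve1 in every library (median 1.16 for Cd163 to 2.79 for Mrc1), and likewise with Fcna, a soluble lectin (0.75 to 2.53). With Retnla, Cd209b and Cd209d 9 of 10 members were above 0 in all 6 libraries. The general macrophage gene Adgre1 gave -0.03 to 0.63, with 3 members above 0 in all 6 libraries, and Mertk, the Gas6 receptor, 0.32 to 1.10. Medians were also above 0 for all 10 members with Lyz2 (0.41 to 2.52), Cd209a, a gene of the dendritic cell gate (0.49 to 1.60), and Trem2 (0.10 to 1.00). In that order 4, 5 and 0 members were above 0 in all 6 libraries.

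Log2 odds ratios with Ccr2 lay below 0, with medians of -2.01 for Folr2 to -1.19 for Cd209g and 8 of 10 members below 0 in all 6 libraries. Beside Cx3cr1, the fractalkine receptor, medians over the 5 libraries that held it ran from -5.32 for Folr2 to -1.32 for Timd4 and 9 of 10 members were below 0 in all 5. Cx3cr1 was seen in no thinned macrophage of the library labelled middle-aged female and in at most 2.45% of a library, so these values rest on few cells. Beside Axl, the other TAM receptor read here, medians ran from -1.53 to -0.48, with 6 of 10 members below 0 in all 6. The MHC class II gene H2-Aa split the members: Timd4 was below 0 in all 6 libraries (median -1.20), and Mrc1 was above 0 in 5 of 6 (median 0.66). Without macrophages that passed another gate the median of Mrc1 with H2-Aa was -0.16.

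**Figure D4:**
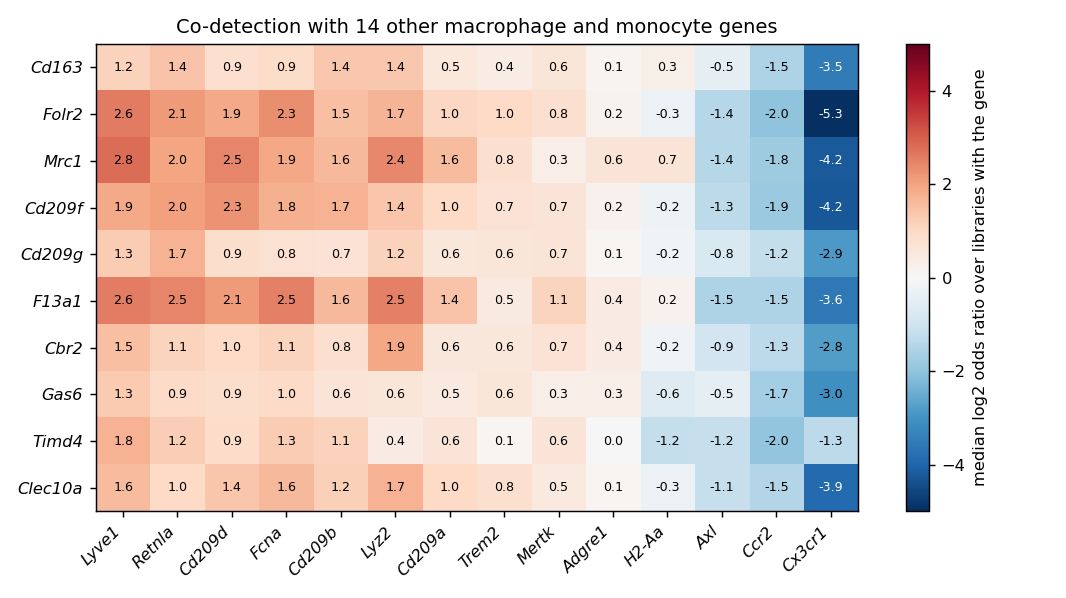
Median log2 odds ratio of each member (rows) with 14 other genes (columns) over the 6 libraries (5 for Cx3cr1), with cells thinned to 1500 UMIs. Red marks odds ratios above 0 and blue those below 0, so Lyve1 and Fcna are red for all members and Ccr2, Cx3cr1 and Axl are blue for all.

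The genes most like 9 of the members were named by Pearson's r of log2(CPM + 10) over 51 sums of 14 classes and 6 libraries, among 4174 genes of at least 30 CPM in macrophages. These sums share libraries and classes, so r is a description with no p. Cd163 was most like Cd209d (r = 0.96), Folr2 most like C1qc (0.97), a gate gene, Mrc1 like Ptpro (0.94), Cd209f and Cd209g both like Pla2g2d (0.98 and 0.97), F13a1 like Kcnk13 (0.92), Cbr2 like P2ry12 (0.93), Timd4 like Fcna (0.95) and Clec10a like Mgl2 (0.93). Clec10a and Mgl2 may share reads. Among the members themselves Cd209f and Cd209g, which may share reads, were closest (0.96), and Gas6 with Clec10a farthest apart (0.11).

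The third question was whether the genes change with age in macrophages. The sums of all 6 libraries were compared between ages, with 10221 genes tested by edgeR. No member passed the threshold in any of the 3 contrasts, and neither did any other gene: 0 of 10221 (0%) were called in each, with 314 genes at an unadjusted p under 0.05 for aged against young, 862 for middle-aged against young and 748 for aged against middle-aged. DESeq2 called 6 higher and 6 lower, 47 higher and 1 lower, and 0 higher and 35 lower in the same order, and no member. In data simulated at this size for aged against young, 29 of 100 genes changed by a log2 of 2 were recovered and 0 of 100 changed by a log2 of 1, with 7 false calls among 10221 genes. The changed genes were drawn at random from all genes tested. A change of 2-fold was thus not detectable for genes taken at random, and the power for the members was not simulated. The values below are normalised CPM, which are scaled by TMM factors.

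Cd163 was 504 and 973 in the young male and female libraries, 946 and 1884 in the libraries labelled middle-aged male and female, and 1371 and 577 in the aged male and female libraries. The ages overlapped, and the log2 change of aged against young was 0.40 (95% interval -0.89 to 1.69). For middle-aged against young it was 0.94 (-0.36 to 2.24), the largest change of any member in the 3 contrasts, and -0.04 without the young male library and the one labelled middle-aged female. Mrc1 was 1528 and 2059.97 in the young male and female libraries, 1926 and 3045 in the libraries labelled middle-aged male and female, and 2317 and 1335 in the aged male and female libraries, with a log2 change of aged against young of 0.03 (-0.89 to 0.94). Folr2 was 1241 and 1764, 1652 and 1359, and 1357 and 915 in the same order of libraries, with a change of -0.40 (-1.19 to 0.38).

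Cbr2 and Gas6 were the only members whose aged and young libraries did not overlap. Of all 10221 genes tested 31.1% did not overlap either (15.2% higher and 15.9% lower in aged), so 2 of 10 members is no more than the background. Cbr2 was 798 and 777 in the young male and female libraries, 747 and 752 in the libraries labelled middle-aged male and female, and 674 and 448 in the aged male and female libraries. Its log2 change of aged against young was -0.49 (95% interval -1.20 to 0.22, edgeR adjusted p = 1.00), lower in 2 of 2 aged libraries and not past the threshold. Gas6 was 639.8 and 616 in the young male and female libraries, 575 and 687 in the libraries labelled middle-aged male and female, and 569 and 479 in the aged male and female libraries, with a log2 change of -0.26 (-0.90 to 0.38, edgeR adjusted p = 1.00). Fibroblasts carry Gas6, and summed fibroblast markers were 781 and 72.5 CPM in aged male and female macrophages, against 8267 and 1005 CPM in young male and female macrophages. Epithelium carries Gas6 and Cbr2, and 5 summed epithelial markers were 0 and 1029 CPM in aged male and female macrophages, against 0 and 73.6 CPM in young male and female ones. Summed muscle markers (4 genes) were 36.8 and 563 CPM in aged male and female macrophages, against 100.1 and 19.9 CPM in young male and female ones. The share of macrophage UMIs estimated as free RNA, from the collagen genes Col1a1, Col1a2 and Col3a1, was 17.3% and 2.48% in the aged male and female libraries. It was 52.5% and 17.1% in the young male and female ones, and 32.9% and 61.5% in those labelled middle-aged male and female. This estimate takes all collagen UMIs as free RNA, so those of a fibroblast in the same droplet enter it too. In the young male library it was 20.8% for monocytes and 32.6% for Cd209a dendritic cells, and 121 macrophages there passed the fibroblast gate. Monocytes and dendritic cells stood at 4.04% and 3.55% in the library labelled middle-aged male. They stood at 0% and 0% in the one labelled middle-aged female (6 and 4 cells), and at 0% and 1.10% in the aged male one. In the young female library they stood at 2.73% and 26.7%, and in the aged female one at 0% and 1.43%. The estimate thus differed between classes of the same library, and why was not tested. The part of these markers and of free RNA in the Gas6 and Cbr2 values was not tested.

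The aged and young libraries overlapped for each of the 3 lectins. Cd209f was 853 and 1409.9 in the young male and female libraries, 1023 and 997 in the libraries labelled middle-aged male and female, and 1222 and 859 in the aged male and female libraries, with a log2 change of aged against young of -0.12 (95% interval -0.93 to 0.69). Clec10a was 709.5 and 1173 in the young male and female libraries, 1186 and 1186 in the libraries labelled middle-aged male and female, and 1068 and 732 in the aged male and female libraries. Its log2 change of aged against young was -0.07 (-0.89 to 0.76), and that of Cd209g was -0.31 (-1.32 to 0.71). F13a1 was 1885 and 2211 in the young libraries, 1919 and 2318 in the middle-aged libraries and 2371 and 1489.9 in the aged libraries, always labelled male first, with a change of -0.09 (-0.85 to 0.68). Timd4 was 72.8 and 129.6, 177 and 115, and 119.6 and 122 in the same order, with a change of 0.26 (-0.58 to 1.10).

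Over the 10 genes the median log2 change was -0.10 for aged against young, 0.03 for middle-aged against young and -0.35 for aged against middle-aged, beside 0.02, -0.05 and 0.06 over all genes tested. The smallest edgeR adjusted p of a member in any of the 3 contrasts was 0.605. Fewer cells of one macrophage kind and less RNA per cell cannot be told apart in these sums.

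**Figure D5:**
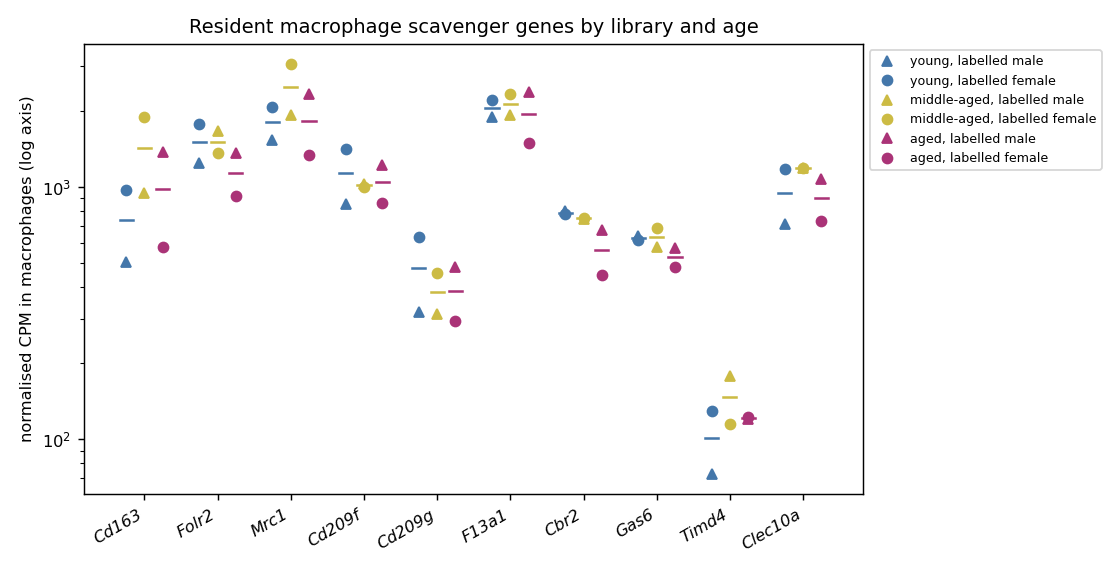
Normalised CPM (log axis) of each member in macrophages of the 6 libraries, with triangles for libraries labelled male, circles for libraries labelled female and a line at the mean of each age. Aged and young libraries overlap for 8 members, and the aged libraries lie below the young ones for Cbr2 and Gas6, which did not pass the test.

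Cd209a dendritic cells gave 5 sums of at least 20 cells, with a single middle-aged one, and 4 members reached the test among 4282 genes. No member was called, where 0.934% of genes were called for aged against young, 0.0467% for middle-aged against young (0.0234% higher and 0.0234% lower) and 0% for aged against middle-aged by edgeR, the last with 111 genes at an unadjusted p under 0.05. Cd163 was 169 and 431 CPM in the aged male and female libraries, against 96.4 and 117.5 CPM in the young male and female libraries. They did not overlap, where 15.9% of the 4282 genes were higher without overlap, 20.1% lower and 36.0% in either direction. From the same collagen genes, and with the same limit, free RNA was estimated at 1.10% and 1.43% of dendritic cell UMIs in the aged male and female libraries. It was 32.6% and 26.7% in the young male and female ones, and its part in the Cd163 level was not tested. Its log2 change of aged against young was 1.37 ± 0.45 (SE, edgeR adjusted p = 0.28), not past the threshold. The same value was 0.73 ± 0.43 for Mrc1, -0.30 ± 0.63 for F13a1 and -0.12 ± 0.42 for Clec10a, with edgeR adjusted p of 0.84 to 0.97. Monocytes had too few cells for a test by age.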

How the data were processed

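Single-cell RNA was measured in 6 libraries. The values are raw UMI counts per gene and barcode, as deposited. Per the submitters' processing notes, the authors ran Cell Ranger 3.0.2 with mm10, and Seurat is named too. The labels name the v2 chemistry, but the 6794880 barcodes listed for each library are those of a later kit, so the chemistry is uncertain.

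From the counts, cells with at least 500 genes and at most 10% mitochondrial UMIs were placed in classes by marker gates. The gates can overlap, so a macrophage may also pass another gate. Counts were summed per library and class (at least 20 cells) and tested with edgeR 4.0.16 (quasi-likelihood, TMM factors, filterByExpr, Benjamini-Hochberg adjustment, threshold 0.05), by age alone, or between classes with library as a block. Alternatives included DESeq2 1.42.0. Ratios of summed counts carry exact 95% intervals, which cover counting error only, and so does the floor of 3 counts. Co-detection used cells thinned to 1500 UMIs. Doublets were marked with Scrublet (scanpy 1.11.5). The age test was tested on simulated data. Gene positions are from GENCODE M21 (31011 of 31053 IDs matched) and promoters from RefSeq.

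The members and the 14 gene lists were chosen with earlier results of these data known. Named were all 10 members in each contrast, up to 3 genes per list and contrast with the smallest p past the threshold, and for each member the gene of the highest r. A few results that this rule names are not reported here. Col1a1, Dcn, Col3a1 and Col1a2 stand as fibroblast markers. Pairing by labelled sex was not used in the age test: the labels give a sex and no shared litter or day, and the middle-aged pair goes against it.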

Additional observations from a re-analysis of the deposited data

Results flagged for a closer look

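For 8 of the 10 genes the difference of aged against young macrophages had opposite signs in the libraries labelled male and in those labelled female. This is 1 library per age and sex, so the difference was not tested. The share of all 10221 genes with opposite signs was not computed, and the members come from the same sums and are seen together in cells. The count of 8 is therefore no result about these genes. In log2(CPM + 10), aged over young was 1.42 in the libraries labelled male and -0.74 in those labelled female for Cd163, a difference of 2.17. The same difference, male minus female, was 1.66 for Cd209g, 1.26 for Clec10a, 1.22 for Mrc1, 1.22 for Cd209f, 1.07 for Folr2, 0.895 for F13a1 and 0.731 for Timd4. In all 8 the male change was above 0 and the female one below 0. Cbr2 (-0.24 and -0.78) and Gas6 (-0.17 and -0.36) were lower with age in both. The young and aged pairs carry Xist and Y-linked RNA as labelled. Summed fibroblast markers in macrophages were 781 CPM in the aged male library and 72.5 CPM in the aged female library, against 8267 CPM in the young male library and 1005 CPM in the young female library. Summed epithelial markers were 0 and 1029 CPM in the aged male and female libraries, against 0 and 73.6 CPM in the young male and female ones, and summed muscle markers 36.8 and 563 CPM, against 100.1 and 19.9 CPM. The part of these markers in these differences was not tested.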

How the results depend on the processing

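All 10 members stayed higher in macrophages than in Cd209a dendritic cells under each of 17 alternatives that tested them, and higher than in monocytes under each of 12 except that DESeq2 did not call Cd209g and Timd4 (log2 7.46 and 5.93). With sums thinned to the smallest total 9 members could be tested, and all 9 were higher in both comparisons. Counts of genes moved more. Against monocytes 255 genes were higher and 108 lower, but 102 and 54 by DESeq2, 603 and 270 with sums of at least 5 cells, a choice made after seeing the data, 354 higher and 248 lower with library totals only, 110 higher with thinned sums and 396 higher with free RNA subtracted. Against dendritic cells thinned sums gave 311 higher and 315 lower in place of 1350 and 1087, with fewer genes tested (1358 against 7959), and library totals only gave 1790 and 833. Leaving out a library or asking for 1000 genes left under 2 monocyte libraries, so these were not run there.

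In macrophages by age, 0 genes were called by edgeR, but DESeq2 called 6 higher and 6 lower for aged against young, 47 higher and 1 lower for middle-aged against young, and 35 lower for aged against middle-aged. With every gene of at least 1 UMI tested, edgeR called 206 higher and 146 lower, 235 and 92, and 108 and 233 in the same order of contrasts. The cause was not tested. Leaving out each library gave 0 to 15 genes higher and 0 to 2 lower for aged against young, and 0 to 1 higher for aged against middle-aged, all of them without the aged male library. With labelled sex as a replicate block 0 genes were called in each contrast, and 300, 572 and 448 had an unadjusted p under 0.05. No member was called under any of 20 alternatives (lowest adjusted p 0.273), and 21, 32 and 15 of 200 uncalled member values took the other sign. With library totals only the median log2 change of all genes was -0.29 for middle-aged against young and 0.26 for aged against middle-aged, in place of -0.05 and 0.06.

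The median co-detection log2 odds ratio of 1.66 was 1.07 with cells thinned to 1000 UMIs (35 pairs above 0 in all 6 libraries, in place of 36), 2.83 with cells thinned to 2500 UMIs, 2.53 without thinning, and 1.44 to 1.84 without each library. All 45 pair medians stayed above 0 under these settings. The precision of monocyte values is limited by 5 to 88 cells per library.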
